A study of Mus musculus with 12 samples.

Results

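The sites described here are regions of the E11.5 mouse distal forelimb bud that HOXA13 and HOXD13 both occupied and that lay in H3K27me3 chromatin without H3K27ac. Overlapping HOXA13 and HOXD13 peaks of wild-type tissue were merged into 33296 sites on the 19 autosomes, of which 19353 carried a peak of each factor. A shared site was kept where it overlapped a wild-type H3K27me3 peak and no wild-type H3K27ac peak by 1 bp or more. This left 1331 sites, 6.88% of the shared sites (95% Wilson interval 6.53 to 7.24) and 4.00% of all sites. They are called Polycomb-only shared sites below, for the histone mark that was mapped; no Polycomb protein was profiled. The sites were chosen by the wild-type peak calls of both factors and both marks, so their wild-type values are a description with no test. The double-mutant and E10.5 lists took no part in the choice.

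HOXA13 and HOXD13 are the homeodomain factors of the distal limb bud that digit formation requires. H3K27me3 is deposited by Polycomb repressive complex 2 on silent developmental genes and regulatory elements and often spreads over broad domains, the Hox clusters being the textbook case. H3K27ac marks active enhancers and promoters, and since it modifies the same lysine, the histone tail that carries it cannot carry H3K27me3. In the early limb bud, many regulatory elements of the later digit programme are silent.

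Chromatin immunoprecipitation with sequencing (ChIP-seq) gave 7 peak lists, 1 library for each. The double mutant was Hoxa13-/-;Hoxd13-/-, with a neomycin cassette in the coding sequence of Hoxa13 and lacZ inserted into exon 1 of Hoxd13, and was profiled for H3K27me3 and H3K27ac in distal forelimbs at E11.5. Wild-type E11.5 distal forelimbs were profiled for the same marks and for HOXA13 and HOXD13, and both genotypes were of mixed C57BL/6 and CD1 background. The E10.5 library was H3K27me3 of CD1 forelimb buds, made with an H3K27me3 antibody of another supplier than at E11.5, so stage cannot be told apart from strain, antibody and part of the limb. The labels do not say whether embryos were pooled. Read depth is unknown, since the lists hold no counts. With 1 library a group, no test across embryos exists: the intervals below cover the counting of sites only, and a difference between genotypes or stages has no replicate check. The autosomal H3K27me3 lists held 18973 peaks over 60.0 Mb in the double mutant and 19624 peaks over 74.3 Mb in wild type, against 15077 peaks over 50.2 Mb at E10.5. Over all chromosomes they held 19358 peaks in the double mutant, 28875 in wild type and 17556 at E10.5. The wild-type list thus held far more peaks off the autosomes than either other list, for a reason that was not tested. The H3K27ac list was longer in the double mutant (37433 autosomal peaks) than in wild type (31220). A list of other length can by itself move every share given here. The peak score is the deposited value, read as the MACS scale of -10 log10(p), and is used only to order sites within 1 list.

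In the double mutant, most Polycomb-only shared sites still carried H3K27me3. An H3K27me3 peak was called at 898 of the 1331 sites (67.5%, 64.9 to 69.9) and was missing at 433 (32.5%). Of 59807 windows of 1300 bp, the median width of the sites, that lay in wild-type H3K27me3 without H3K27ac and without a HOX13 site, 75.3% kept H3K27me3 and 24.7% had no call. Counted by peak, with any overlap, 65.9% of the 15144 autosomal wild-type H3K27me3 peaks without H3K27ac kept it and 34.1% had no call. The sites thus lay below the windows, which weigh wide domains by their length, and the share of peaks lay inside their interval. H3K27me3 was the sole mark at 807 sites (60.6%, 58.0 to 63.2), against 70.6% of the windows and 58% of the peaks. Within the peaks that held sites, double-mutant H3K27me3 covered 74.4% of the bases of the sites and 81.8% of the other bases. Peak by peak the direction was mixed, with the site part better covered in 464 peaks, worse in 334 and equal in 383. Shares of peaks, here and below, count any overlap along a whole peak, so they are not like for like with sites. Of the 1189 peaks that held sites, 909 (76.5%) overlapped a double-mutant H3K27me3 peak, above the 65.9%. These peaks were wider (median 4560 bp, against 2235 bp for all), and 167 had wild-type H3K27ac elsewhere. Whether the sites lost H3K27me3 more often than other H3K27me3 chromatin therefore depended on the unit compared.

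The commonest other outcome was a site with no mark. Neither mark was called in the double mutant at 380 sites (28.6%, 26.2 to 31.0), above the 23.7% of the windows and below the 32.4% of the peaks. H3K27ac was called at 144 sites (10.8%, 9.26 to 12.6), against 5.74% of the windows and 9.62% of the peaks, the share of peaks lying inside the interval of the sites. With scores of 100 or more in every list the H3K27ac share was 7.00%, against 4.99% of the windows, and with lists cut to equal length it was 7.79%, against 4.70%. At 91 of these sites (6.84%) H3K27me3 was called as well, against 4.74% of the windows and 7.97% of the peaks. At 53 (3.98%) H3K27ac stood alone, against 1% of the windows and 1.65% of the peaks. Counted by site, only 53 thus went from an H3K27me3 call to an H3K27ac call, while 380 lost the H3K27me3 call with no H3K27ac call. The 2 marks need not have lain on the same bases of a site. Wild-type H3K27me3 covered a median of 26.6% of the 53 sites and 26.3% of the 380.

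Other classes of HOX13 sites give the scale. The 915 shared sites that carried both marks in wild type kept H3K27me3 in 74.0% of cases (71.1 to 76.7) in the double mutant. Sites of 1 factor in H3K27me3 alone, 692 with HOXA13 and 163 with HOXD13, kept it in 78.7% (75.8 to 81.3) and had H3K27ac in 14.0%. These single-factor sites were weaker peaks, with a median HOXA13 score of 74.5, against 248 at the Polycomb-only shared sites. Their median HOXD13 score was 70.4, against 185. Shared sites with neither mark in wild type gained H3K27me3 in 0.879% and H3K27ac in 6.43% of 9559 cases. The Polycomb-only shared sites thus had the lowest of these 3 shares for keeping H3K27me3, but not where a mark had to cover 50% of a site: there they kept it at 74.0%, shared sites with both marks at 71.7% and single-factor sites at 76.9%. The order also turned among sites fully inside H3K27me3, where the Polycomb-only shared sites kept it at 94.0% and shared sites with both marks at 89.7%. The H3K27ac share lay below that of single-factor sites, with intervals that overlap, and above that of unmarked shared sites.

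**Figure D1:**
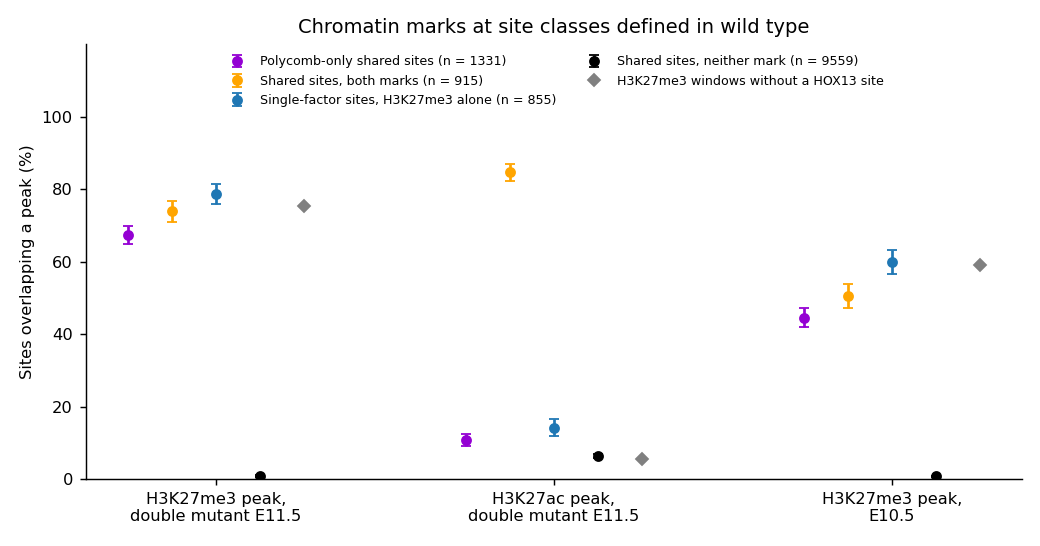
Share of sites (%) that overlapped a peak in the double mutant at E11.5 or at E10.5, for site classes defined in wild type; points are shares, bars are 95% Wilson intervals over sites, and diamonds are windows of 1300 bp without a HOX13 site. Polycomb-only shared sites stood at 67.5% for H3K27me3 and 10.8% for H3K27ac in the double mutant, and at 44.6% for H3K27me3 at E10.5.

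Seen from the other side, 1036 shared sites carried H3K27me3 alone in the double mutant. Of these, 807 (77.9%) had it alone in wild type too, 115 had both marks, 34 had H3K27ac alone and 80 had neither. H3K27me3 was called in wild type at 89.0% of them, a higher share than the 67.5% found in the opposite direction. H3K27ac was called in wild type at 14.4% of them (149 sites). H3K27me3 in the double mutant without a wild-type call was found at 166 shared sites, against 671 with the reverse pattern.

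The Polycomb-only shared sites showed a local gap in H3K27me3 over the bound sequence. In the double mutant, which lacks both factors, an H3K27me3 peak covered the centre of 47.3% of the sites but 56.3% of the positions 1000 bp to either side. In wild type the centre was covered at 57.9% of the sites and the flanks at 79.6%. At E10.5 the values were 29.6% for the centre and 36.7% for the flanks. The double-mutant and E10.5 lists took no part in choosing the sites, and both showed the gap over the whole group. They can share peak edges with the wild-type list that chose the sites, so they are not independent checks. At the 538 sites called in all 3 lists, the wild-type list had almost no gap, with 88.3% at the centre and 88.9% at the flanks. The double-mutant list there gave 82.0% and 85.3%, and the E10.5 list 69.3% and 78.7%. Windows without a HOX13 site had none: their centres were covered in 58.9% and their flanks in 57.3% of cases in the double mutant, and in 77.3% and 72.0% in wild type. Single-factor sites had none either, with 66.4% at the centre and 64.6% at the flanks in the double mutant and 84.6% and 79.5% in wild type. They were the weaker peaks, however. In the weakest quintile of the Polycomb-only shared sites by HOX13 score the difference was small as well, at -3.93 percentage points in the double mutant and -1.31 in wild type. Whether the contrast with single-factor sites goes with shared binding or with peak strength was not tested. Shared sites with both marks had one, of 8.91 percentage points in the double mutant and 11.0 in wild type.

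Where H3K27me3 was called in both genotypes, the gap had nearly the same depth in the double mutant and in wild type. Over those 898 sites, the centre was covered at 70.2% and the flanks at 80.0% in the double mutant, a difference of -9.86 percentage points. In wild type the centre was covered at 75.1% and the flanks at 85.1%, a difference of -10.1. Mean coverage of the site itself was 75.8% in the double mutant and 80.1% in wild type. It was higher in the double mutant at 169 sites, lower at 315 and equal at 414. The 898 sites were picked by the double-mutant call itself, so their like depth does not compare the genotypes. Over all 1331 sites the difference was -9.02 percentage points in the double mutant and -21.8 in wild type. At the 538 sites also called at E10.5 it was -3.35 and -0.651.

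**Figure D2:**
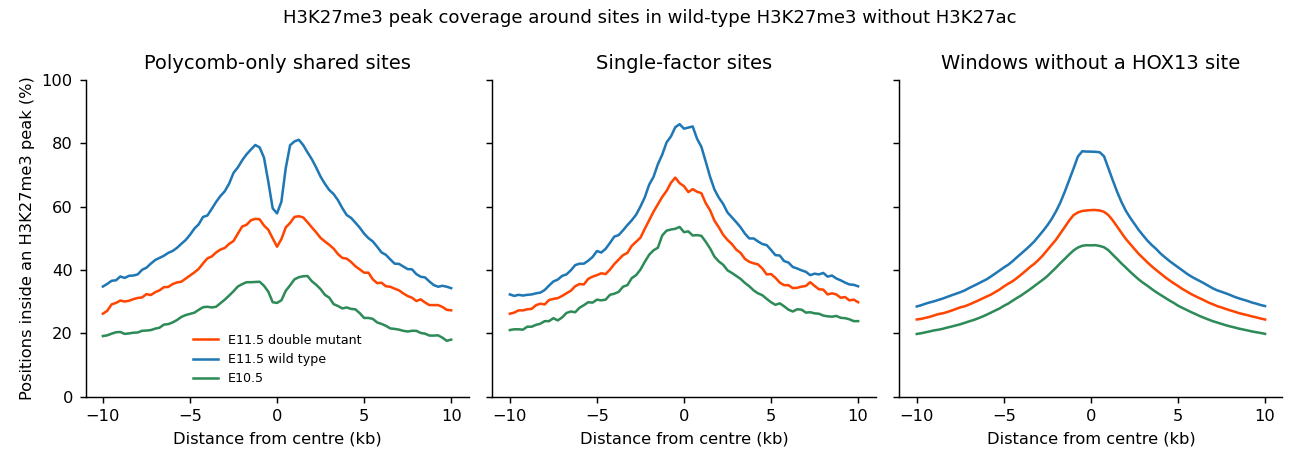
Percent of sites whose position at each distance from the site centre (kb) lay inside an H3K27me3 peak, for Polycomb-only shared sites, single-factor sites and windows without a HOX13 site, all in wild-type H3K27me3 without H3K27ac. Coverage over the Polycomb-only shared sites falls at the centre in the double mutant, in wild type and at E10.5, and is highest near the centre for the other 2 classes in wild type.

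The same gap appears when sites are sorted by how they lie in wild-type H3K27me3. Fully inside 1 H3K27me3 peak were 550 sites (41.3%), partly inside 1 peak 538 (40.4%), and 243 (18.3%) bridged 2 or more neighbouring peaks. Among windows, which have the sites' median width, 3.92% bridged peaks. Among single-factor sites, which were narrower (median 922 bp, against 1307 bp), the share was 4.68%. Among shared sites with both marks the share was 13.1%. Of the sites with a call in the given list, 15.4% bridged peaks in the double mutant (138 of 898) and 14.2% at E10.5 (84 of 593), against 5.90% and 6.39% of windows.

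The call in the double mutant followed this position. H3K27me3 was kept at 94.0% of the sites fully inside a peak (91.7 to 95.7), at 46.1% of those partly inside and at 54.7% of those that bridged peaks. For windows the shares were 93.2%, 54.4% and 68.7%, and for single-factor sites 89.8%, 51.7% and 75.0%. Fully inside H3K27me3, the interval of the Polycomb-only shared sites included the share of windows without HOX13 and overlapped that of single-factor sites (87.1 to 92.0). Over all Polycomb-only shared sites the share was lower than over windows, and the classes differed in 2 ways. Fewer of the sites lay fully inside a peak (41.3%, against 52.5% of windows). Those not fully inside kept the mark less often than such windows. Bridging sites were more numerous than among windows (18.3%, against 3.92%). Sites partly inside 1 peak were not (40.4%, against 43.6%). Of the 243 bridging sites, 110 had no H3K27me3 peak in the double mutant, 66 touched 1 peak and 67 still touched 2 or more. In the double mutant 16 (6.58%) lay wholly inside 1 peak, against 11.0% of bridging windows, so a filled gap was rare in both.

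H3K27ac did not follow position in this way. It was called in the double mutant at 11.3% of the sites fully inside H3K27me3, 11.2% of those partly inside and 9.05% of those that bridged peaks. Windows gave 7.50%, 3.92% and 2.60%. What did follow position was whether H3K27me3 was called beside it: fully inside, 53 sites had both marks and 9 had H3K27ac alone, whereas partly inside 28 had both and 32 had H3K27ac alone.

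Strength of HOX13 occupancy and position moved together. Each site was ranked by the lower of its within-group ranks of HOXA13 and HOXD13 score, and the sites were split into quintiles. The bridging share was 8.99%, 8.27%, 10.9%, 25.9% and 37.2% with increasing rank. The share fully inside H3K27me3 was 55.4%, 55.3%, 42.9%, 30.1% and 22.9%. Median HOXA13 scores were 174 fully inside, 270 partly inside and 554 at bridging sites, and median HOXD13 scores were 134, 201 and 414. The gap deepened accordingly: in the strongest quintile the double-mutant list covered 25.9% of centres and 47.0% of flanks, and the wild-type list 30.8% and 80.1%. In the weakest quintile the double-mutant list covered 60.3% of centres and 64.2% of flanks, and the wild-type list 76.8% and 78.1%.

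Strongly occupied sites kept H3K27me3 less often, but not when they lay fully inside it. With increasing rank, H3K27me3 was kept in the double mutant at 77.5%, 78.2%, 67.3%, 59.4% and 54.9% of the sites. Among sites fully inside an H3K27me3 peak the shares were 92.6%, 91.2%, 94.7%, 96.3% and 100%, the last from 61 of 61 sites. Among sites partly inside they were 54.7%, 58.8%, 44.7%, 40.2% and 34.9%. The fall with rank was therefore present at the edges and absent in the interior. Site width gave a like fall over all sites, from 78.3% kept in the narrowest quintile to 60.5% in the widest. Rank and site width were not separated. H3K27ac in the double mutant went the same way as H3K27me3 over all sites, at 13.9% in the weakest and 7.89% in the strongest quintile. The share with neither mark was therefore highest in the strongest quintile (39.8%, against 19.5% in the weakest), though more of the strongest sites kept H3K27me3 (54.9%).

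**Figure D3:**
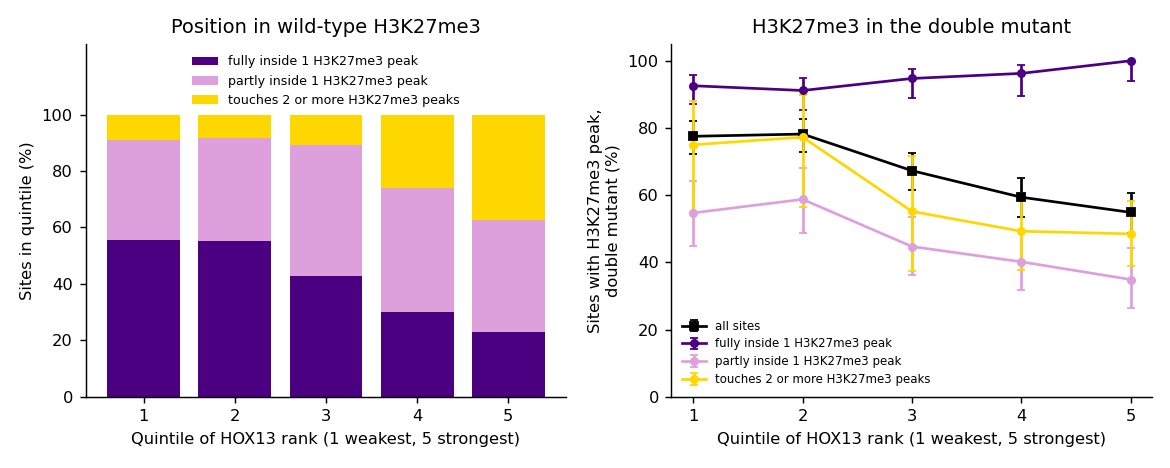
Polycomb-only shared sites by quintile of HOX13 rank, from weakest to strongest: left, percent of sites by position in wild-type H3K27me3; right, percent with an H3K27me3 peak in the double mutant, for all sites and by position, with 95% Wilson intervals over sites. The bridging share reaches 37.2% in the strongest quintile, while sites fully inside H3K27me3 stay above 91% in every quintile.

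Width of the H3K27me3 domain ordered the outcome as well. The wild-type peak that held a site was under 2 kb wide for 253 sites and 20 kb or more for 212. H3K27me3 was kept in the double mutant at 36.0%, 57.6%, 73.8%, 86.8% and 98.6% of sites in peaks of under 2, 2 to 5, 5 to 10, 10 to 20 and 20 kb or more. Windows gave 40.9%, 74.0%, 86.7%, 92.6% and 97.4%. The sites lay below the windows in each bin under 20 kb, furthest at 2 to 5 kb, and not in the widest domains; under 2 kb their interval (30.3 to 42.1) included the window share. With windows weighted to the width and score of the peaks that held the sites, 75.4% kept H3K27me3 and 5.13% had H3K27ac, against 67.5% and 10.8% of the sites.

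At E10.5, 593 sites (44.6%, 41.9 to 47.2) lay in an H3K27me3 peak, against 59.2% of the windows and 44.2% of the peaks. The sites were thus below the windows and level with the peaks, which count any overlap along a whole peak. Of the 1189 peaks that held sites, 51.3% overlapped an E10.5 peak. Shared sites with both marks gave 50.5%, single-factor sites 60.0% and unmarked shared sites 0.837%. By width of the E11.5 domain the shares were 15.8%, 34.0%, 47.7%, 66.7% and 75.9%, and for windows 21.9%, 53.2%, 74.1%, 80.5% and 85.8%. By position they were 72.9% fully inside, 26.8% partly inside and 19.8% at bridging sites, against 78.6%, 37.3% and 43.3% of windows. With increasing HOX13 rank they were 59.2%, 52.3%, 47.4%, 35.3% and 28.6%.

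**Figure D4:**
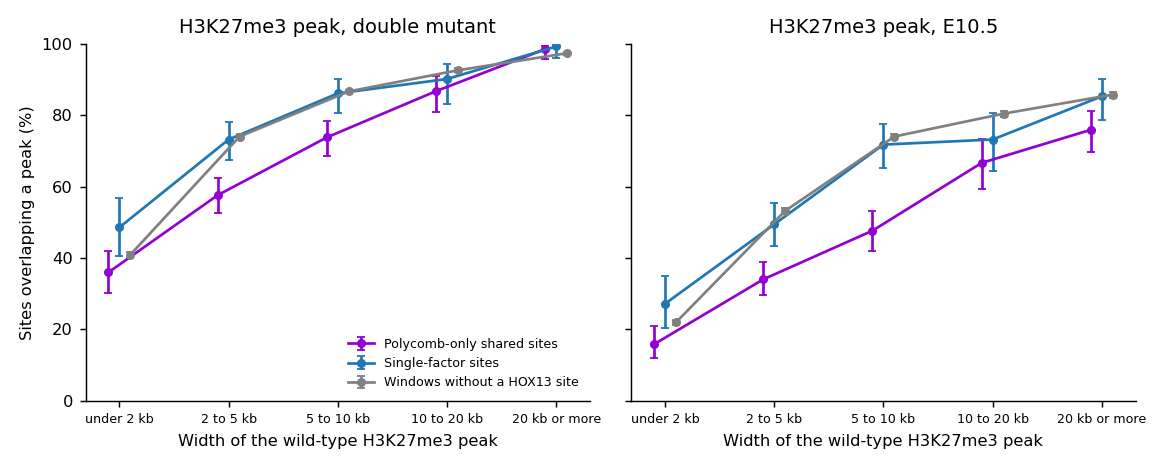
Percent of sites with an H3K27me3 peak in the double mutant (left) and at E10.5 (right) by width of the wild-type E11.5 H3K27me3 peak that held them, with 95% Wilson intervals over sites. Polycomb-only shared sites lie below both comparison classes at 2 to 10 kb in each panel and reach 98.6% in the double mutant at 20 kb or more.

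H3K27me3 was called in the double mutant at 538 of the 593 sites that had it at E10.5 (90.7%), and at 360 of the 738 that had not (48.8%). Windows without a HOX13 site gave 90.7% and 53.0%, so this overlap was close to that of H3K27me3 chromatin in general. All of wild type, double mutant and E10.5 had the mark at 538 sites (40.4%), against 53.7% of the windows and 38.5% of the peaks. Of the 380 sites with neither mark in the double mutant, 43 (11.3%) were called at E10.5. Sites with H3K27ac alone were called at E10.5 in 22.6% of cases (12 of 53), and those with both marks in 75.8% (69 of 91). Sites with both marks in the double mutant were thus mostly marked at E10.5 already, and sites with H3K27ac alone mostly were not. By the double-mutant H3K27me3 call alone, 59.9% of the kept sites and 12.7% of the others were called at E10.5. Windows were not split by both double-mutant marks, so whether this contrast is particular to these sites was not tested. Width and position of the domain, given above, moved with both calls, and their part in this overlap was not tested.

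At these sites, loss of H3K27me3 was often of a whole small domain and sometimes local. Windows and peaks without a double-mutant call were not sorted in this way, so whether this is particular to the sites was not tested. For scale, 34.1% of the wild-type H3K27me3 peaks without H3K27ac had no double-mutant call. Windows in peaks under 2 kb wide kept one in only 40.9% of cases. Of the 433 sites without a call in the double mutant, 142 (32.8%) lay in a wild-type peak that a double-mutant peak still overlapped elsewhere. The nearest double-mutant peak was within 1000 bp of 123 of them (28.4%) and more than 10000 bp from 205 (47.3%). A wild-type peak score under 100 was found at 65 of the 433 (15.0%), against 22 of the 898 kept sites (2.45%), so weak wild-type peaks were commoner among those lost. Wild-type H3K27me3 covered a median of 26.5% of the lost sites and 100% of the kept ones.

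Among these sites, H3K27ac in the double mutant was commoner near wild-type H3K27ac. Windows and peaks were not split by this distance, so whether the trend is particular to these sites was not tested. The median distance to the nearest wild-type H3K27ac peak was 32133 bp. H3K27ac was called in the double mutant at 31.3% of the 80 sites within 1 kb of one (22.2 to 42.1). The share was 16.0% at 1 to 10 kb, 11.3% at 10 to 50 kb and 4.60% at 50 kb or more. H3K27me3 in the double mutant varied less, at 72.5%, 69.0%, 68.1% and 65.3%. E10.5 H3K27me3 stood at 58.8%, 53.0%, 45.6% and 37.2%. The gained peaks were small: 148 double-mutant H3K27ac peaks lay at the 144 sites, with a median width of 1136 bp and score of 108, against 1593 bp and 243 for all autosomal peaks of that list, and 65 scored under 100. At 19 of the 144 sites (13.2%) the peak reached a wild-type H3K27ac peak, so at most of them it was not an extension of one.

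**Figure D5:**
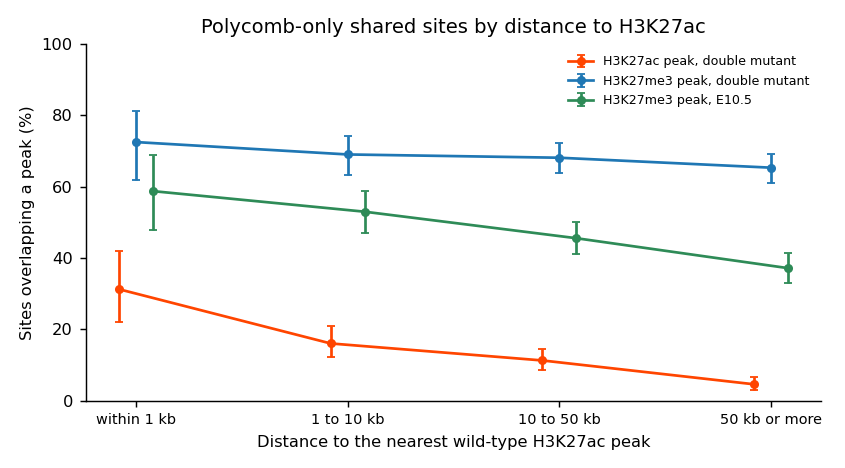
Percent of Polycomb-only shared sites with an H3K27ac or H3K27me3 peak in the double mutant, or an H3K27me3 peak at E10.5, by distance to the nearest wild-type H3K27ac peak, with 95% Wilson intervals over sites. The H3K27ac share is 31.3% within 1 kb and 4.60% at 50 kb or more. Windows without a HOX13 site were not split by this distance.

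The sites were spread over many domains. They lay in 1189 of 19624 autosomal wild-type H3K27me3 peaks (6.06%), which made up 13.8% of the covered length. Those peaks had a median width of 4560 bp, against 2235 bp for all. A peak held 1 site in 1080 cases, 2 in 90 and 3 or more in 19. Where a peak held 2 or more sites, H3K27me3 in the double mutant was called at all of them in 85 of 109 peaks, at none in 14 and at some in 10. Neighbouring sites in a peak share its call and are not independent.

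The domain with the most sites was chr15:102725117-102906289 (mm9), 181173 bp wide, with 14. In the double mutant 10 of these had H3K27me3 alone and 4 had both marks, and 13 of the 14 were called at E10.5. H3K27me3 peaks covered 97.9% of that domain in the double mutant and 86.1% at E10.5. The domain chr17:83569358-83628093 (58736 bp) held 5 sites, all with H3K27me3 alone in the double mutant, where 99.9% of it stayed covered; at E10.5 only 26.7% was covered and 1 of the 5 sites was called. The domain chr11:96107103-96220059 (112957 bp) held 4 sites, all with H3K27me3 alone in the double mutant and all called at E10.5. In the double mutant the 3 domains thus kept H3K27me3 at all their sites, and they differed in how far the mark extended at E10.5.

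The strongest sites of each outcome show how a site sat in its domain. Among sites with H3K27me3 alone in the double mutant, chr10:50482370-50484601 scored 3100 for each factor and lay across the end of a wild-type peak of 7913 bp. The double-mutant peak there ended at position 50482787 and the wild-type peak at position 50483127, both inside the site. The site chr11:96142292-96144285 (HOXA13 score 3176, HOXD13 score 2623) lay in the interior of the chr11 domain named above, with its centre 36186 bp from the nearer end. The site chr8:94497185-94498859 (2636 and 2441) again straddled an end, of a 44192 bp domain, and the double-mutant peak ended at 94497479 and the wild-type peak at 94497986.

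Among sites with neither mark in the double mutant, chr6:50674594-50677346 (HOXA13 3100, HOXD13 2932), chr8:66692893-66695889 (2803 and 2848) and chr2:75089976-75092280 (3176 and 2160) ranked highest. Each straddled an end of a small domain, of 1659, 4581 and 5749 bp. Each site's centre lay outside the domain, by 937, 1122 and 553 bp. None was called at E10.5. The nearest double-mutant H3K27me3 peaks were 127724, 1658 and 92916 bp away, so the domain was absent around the first and the third.

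Among sites with H3K27ac alone in the double mutant, chr9:72610465-72611954 (2597 and 1918), chr3:66542320-66545004 (1964 and 1465) and chr9:87965991-87968206 (1957 and 1406) ranked highest. Their wild-type H3K27me3 peaks were 1648, 5841 and 4834 bp wide and their centres lay outside them by 623, 196 and 682 bp. The double-mutant H3K27ac peaks scored 165, 335 and 873, and the nearest wild-type H3K27ac peaks were 2441, 57238 and 245 bp away. At the first site the H3K27ac peak ended at position 72611692 and the wild-type H3K27me3 peak began at 72611833, so they did not overlap. At the others they did. None of these 3 sites was called at E10.5.

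Among sites with both marks in the double mutant, chr1:84545610-84547319 (3100 and 2806) carried double-mutant H3K27me3 up to position 84546016 and H3K27ac from position 84546410, so the marks lay on opposite sides within the site. At chr2:74975598-74978118 (2093 and 1847), the double-mutant H3K27ac peak from 74974947 to 74976484 lay inside the H3K27me3 peak from 74971106 to 74981895. At chr16:63599628-63601671 (1895 and 1546) both marks overlapped as well. Of these, only the chr2 site was called at E10.5. Peak lists cannot tell apart both marks in the same cells from each mark in different cells.

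At a margin of 100 bp, the edge of the rule touched few sites. Wild-type H3K27me3 covered 100 bp or less of 85 of the 1331 sites, and wild-type H3K27ac lay 100 bp or less from 7. Outside the rule, 61 unmarked shared sites had wild-type H3K27me3 100 bp or less away, and 9 sites of both marks had H3K27ac over 100 bp or less. At a wider margin more sites were touched: 439 unmarked shared sites had wild-type H3K27me3 within 1000 bp. Many of the 1331 sites were also covered only in part. Wild-type H3K27me3 covered a median of 77.1% of a site, with a lower quartile of 31.5%, and lay over the centre at 57.9% of the sites. By chromosome, the sites made up between 3.15% and 9.45% of shared sites, and H3K27me3 was kept in the double mutant at between 47.3% and 82.8%.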

How the data were processed

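Peak lists of 7 ChIP-seq libraries were used, 1 per group, with groups from the sample titles. The submitters' processing notes name Bowtie 0.12.7 for alignment, MACS 1.4 for peaks and the mm9 build. The score the authors deposited for each peak is read here as -10 log10(p), from its minimum of 50, and was used within 1 list only, because it depends on depth and input. The reference at hand is another build, so no gene or sequence was assigned to a site and the planned gene lists were not used. Coordinates count from 1, and overlap meant 1 bp or more. Intervals are Wilson 95% (statsmodels 0.14.6). Background windows of 1300 bp tiled the autosomes. The overlap steps recovered 2000 of 2000 simulated sites of known state. Regions named are the 3 sites of highest HOX13 rank for each double-mutant outcome and without E10.5 H3K27me3, and the 3 domains with the most sites. Sites, lists and rules were chosen with earlier results of these data known. Alternative settings numbered 7, with 1 more added after seeing the data. Input libraries were not analysed here.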

Additional observations from a re-analysis of the deposited data

How the results depend on the processing

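No paired analysis was possible because each group holds 1 library. Shares below are of the Polycomb-only shared sites as each setting defines them, and are named where they left the interval of the reported value. With scores of 100 or more in every list, H3K27me3 was kept in the double mutant at 62.7%, H3K27ac was called at 7.00%, both marks at 3.50% and neither at 33.8%; H3K27me3 was called at E10.5 at 34.4% and in all 3 lists at 31.1%, and single-factor sites kept it at 73.1%. With 50% of the site to be covered, H3K27me3 was kept at 74.0%, stood alone at 68.3%, and neither mark was called at 22.4%; shared sites of both marks kept H3K27me3 at 71.7% there, below these sites, the reverse of the reported order. With lists cut to equal length, H3K27ac was called at 7.79%, H3K27me3 alone at 63.7%, both marks at 4.82% and H3K27ac alone at 2.97%. With peaks within 1000 bp counted, shared sites of both marks kept H3K27me3 at 76.9%. With both factor scores at 100 or more, H3K27me3 was kept at 62.7% and alone at 57.7%, H3K27ac was called at 8.97%, both at 4.98% and neither at 33.3%, with E10.5 H3K27me3 at 39.1% and all 3 lists at 35.3%. Counting each H3K27me3 peak once left every share of these sites within its interval. Joining peaks closer than 1000 bp can change a call only for a site that lies wholly in such a gap, and most sites are wider, so it says nothing about stability.

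The setting added after seeing the data kept the 550 sites fully inside H3K27me3. There H3K27me3 was kept at 94.0% and alone at 84.4%, both marks were called at 9.64%, H3K27ac alone at 1.64% and neither at 4.36%. E10.5 H3K27me3 was called at 72.9%, and all 3 lists at 72.2%. Shared sites of both marks kept H3K27me3 at 89.7% and single-factor sites at 89.8%. The difference in keeping between Polycomb-only shared sites and single-factor sites was 4.15 percentage points there, against -11.2 over all sites. Among the settings for which this difference was computed, no other changed its sign. This difference was not computed with both factor scores at 100 or more, nor with each H3K27me3 peak counted once. It was -2.95 with 50% of the site covered. The cause was not tested beyond the split by position. Windows without a HOX13 site kept H3K27me3 at 74.6% with scores of 100 or more and at 77.2% with equal list lengths, above the sites in both. Windows fully inside H3K27me3 kept it at 93.2%, inside the interval of such sites (91.7 to 95.7). The other settings were not run on windows.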
